A study of Homo sapiens with 39 samples.

Results

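The purine and metabolite receptors described here are 10 human genes for cell-surface receptors that sense small molecules outside the cell: P2RX1, P2RX4, P2RX5, P2RX7, P2RY1, P2RY2, P2RY13, ADORA2A, SUCNR1 and GPR183. They were listed by name, and a gene was measured by the probe sets whose annotation gives that symbol and no other, its main probe set being the one with the highest mean over all 39 arrays. Of the 10 genes, 9 had such a probe set, among 18132 genes measured in this way. ADORA2A, an adenosine receptor, had no probe set naming it alone and so has no value here. The data are RNA levels from Affymetrix PrimeView arrays for 7 cell lines grown from human acute myeloid leukemias, each given tamibarotene (SY-1425) or its vehicle DMSO for 24 h. Tamibarotene is a synthetic retinoid that activates retinoic acid receptor alpha, and was added at 100 nM for a final 50 nM. There were 21 tamibarotene arrays, 3 in each of MV-4-11, Sig-M5, OCI-AML3, NOMO-1, KG-1a, OCI-M1 and Kasumi-1. The 18 vehicle arrays were 3 a line, except 2 in Kasumi-1, KG-1a and Sig-M5. The labels do not say whether a line's replicates came from separate cultures, so the tests measure the spread between these arrays, which may be technical, pooled over the 14 groups of line and arm.

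P2X receptors are ion channels made of 3 subunits that open when ATP binds outside the cell. P2Y receptors are G protein-coupled receptors for ATP, ADP, UTP and related nucleotides, and adenosine, which ectoenzymes make from released ATP, acts on receptors such as ADORA2A. SUCNR1 is the G protein-coupled receptor for succinate, and GPR183 (also called EBI2) is that for oxysterols, oxidised cholesterol derivatives that guide the migration of immune cells. In myeloid cells such receptors are known for chemotaxis, cytokine release and, for P2RX7, assembly of the inflammasome. Of the lines, MV-4-11, Sig-M5, OCI-AML3 and NOMO-1 are known for monocytic features, KG-1a is an undifferentiated line, OCI-M1 is an erythroleukemia line and Kasumi-1 carries the RUNX1-RUNX1T1 fusion. Retinoic acid receptor alpha is a ligand-dependent transcription factor, and its ligands can drive maturation of leukemic myeloid cells.

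Values are on a log2 scale, so a difference of 1 is a doubling of signal, and levels of different genes are not set against each other, since probe sets differ in sensitivity. Array medians lay between 5.01 and 5.17, and the median of all gene means was 5.69. The vehicle arrays of Sig-M5 and 1 vehicle array of Kasumi-1 stood apart in RNA quality: the 3' minus 5' difference of the beta-actin control was 0.31 to 0.34 in tamibarotene Sig-M5 arrays against 0.81 and 1.89 in vehicle replicates 1 and 2, and 0.20 to 0.22 in tamibarotene Kasumi-1 arrays against 1.18 and 0.30 in vehicle replicates 2 and 3. On all the other arrays it lay between -0.02 and 0.56. OCI-M1 held the upper end, with 0.11, 0.52 and 0.56 in vehicle replicates 1, 2 and 3 against 0.10 to 0.24 with tamibarotene. Of 16 marker genes, 14 were measured. The blood-cell genes PTPRC and SPI1 averaged at least 5.09 and 4.78 in every group, whereas the myeloid granule genes MPO and LYZ ran from 4.03 and 3.56 to 13.9 and 13.7. Among markers of other cell types, the T cell gene CD3D averaged 11.9 with tamibarotene and 12.3 with vehicle in KG-1a, the epithelial gene EPCAM reached 9.22 in Kasumi-1, and KRT18 and the endothelial gene PECAM1 reached 7.82 and 10.5 in NOMO-1. CD3E, MS4A1, KRT8, COL1A1, COL1A2 and CDH5 stayed at or below 5.50 in all 14 groups. In such bulk cultures, fewer cells that express a gene and less RNA per cell cannot be told apart.

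P2RX5 was higher with tamibarotene in 6 of the 7 lines, GPR183 was much lower in MV-4-11, and P2RY13 and SUCNR1 were much higher in Sig-M5. P2RX1 rose by smaller amounts in 4 lines on its main probe set, and was called in OCI-AML3 alone on its other probe set. P2RX7 and P2RY1 did not pass the test in any line. The list was drawn up with results of these data known, and P2RX5 and GPR183 were chosen by measured values, P2RX5 by its difference over the mean of the 7 lines and GPR183 by its difference in MV-4-11. Those differences are given as a description, without a p-value, and the calls for the other genes are not independent evidence for the list. Over 63 combinations of gene and line, 15 were called higher, 3 lower and 45 neither. A call is an adjusted p-value under 0.05 in limma. These counts include 6 higher calls of P2RX5 and 1 lower call of GPR183, which are not to be read as test results. Without P2RX5 and GPR183, 9 of 49 were called higher and 2 lower. No share of all genes was computed for these pooled counts, so they show no excess over other genes. Shares are given line by line below.

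Counts by line are given for the 7 receptors other than P2RX5 and GPR183, beside the share of all 18132 genes called there. In Sig-M5, 4 of the 7 were called higher and 1 lower, where 8.50% of all genes were called higher and 18.4% lower. In MV-4-11, 1 was called higher and 1 lower, with 4.32% and 3.40% of all genes. NOMO-1 had 2 called higher (2.77% of all genes) and OCI-AML3 had 1 (5.50%), with none called lower in either (0.711% and 6.36%). Kasumi-1 had 1 called higher, SUCNR1, where 0.480% of all genes were called higher and 2.36% lower. KG-1a and OCI-M1 had none of the 7 called, where 1.21% and 0.700% of all genes were called higher and 1.88% and 0.386% lower. The median difference of the 7 genes was 0.40 in Sig-M5, where that of all genes was -0.10. That median is the P2RX1 value, which was -0.11 on the other P2RX1 probe set. With the actin 3' minus 5' difference as a covariate in limma, P2RX1 (adjusted p = 0.194), P2RY2 (0.124) and P2RX4 (0.307) were not called in Sig-M5. The median of the 7 genes lay between -0.09 and 0.08 in the other 6 lines, where that of all genes lay between -0.03 and 0.02. On the mean of the 7 lines, 3 of the 7 were called higher (P2RX1, P2RY13 and SUCNR1) and none lower, beside 6.71% and 12.4% of all genes.

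**Figure D1:**
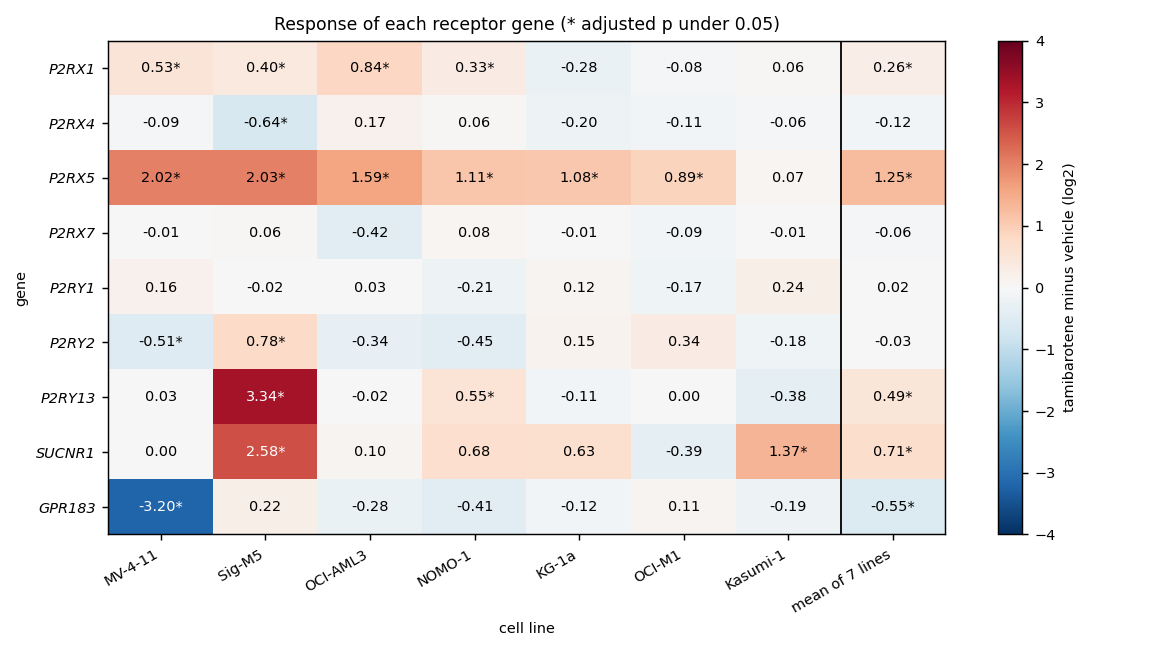
Tamibarotene minus vehicle (log2) for the 9 measured receptor genes (rows) in each line and on the mean of the 7 lines (columns), coloured from blue (lower) to red (higher), with an asterisk where the adjusted p was under 0.05. The P2RX5 row is red in 6 lines and 0.07 in Kasumi-1. P2RY13 (3.34) and SUCNR1 (2.58) in Sig-M5 and GPR183 in MV-4-11 (-3.20) stand out in single lines. P2RX5 and GPR183 were chosen by their measured differences. Their rows are therefore descriptions, and asterisks in them are not to be read as test results.

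P2RX5, an ATP-gated channel subunit, was the receptor raised in the most lines. In MV-4-11 it read 6.87, 6.84 and 6.94 with tamibarotene, against 5.17, 4.86 and 4.58 with vehicle, a difference of 2.02 ± 0.13 (SE) or 4.05-fold. Sig-M5 gave 6.82, 6.47 and 6.83 with tamibarotene, against 4.81 and 4.54 with vehicle, a difference of 2.03 ± 0.14 or 4.08-fold. The lowest treated array in each of these lines lay above the highest vehicle array by more than 1, where arms without overlap were found for 20.2% of all genes in MV-4-11 and 47.9% in Sig-M5. In OCI-AML3 the tamibarotene arrays read 8.03, 8.13 and 8.03 and the vehicle arrays 6.39, 6.70 and 6.31, a difference of 1.59 ± 0.13. NOMO-1 gave 7.94, 7.87 and 7.65 with tamibarotene, against 6.62, 6.91 and 6.61 with vehicle, a difference of 1.11 ± 0.13. The arms did not overlap in either line, as was so for 30.7% of all genes in OCI-AML3 and 16.0% in NOMO-1. KG-1a arrays read 7.996, 7.78 and 7.94 with tamibarotene and 6.75 and 6.90 with vehicle (1.08 ± 0.14), and OCI-M1 arrays read 8.61, 8.65 and 8.63 with tamibarotene and 7.63, 7.87 and 7.73 with vehicle (0.89 ± 0.13). Arms without overlap made up 39.1% of all genes in KG-1a and 11.8% in OCI-M1. Kasumi-1 was the exception, with overlapping arrays of 5.74, 5.84 and 5.67 for tamibarotene and 5.81 and 5.55 for vehicle. Its difference was 0.07 ± 0.14. The mean difference over the 7 lines was 1.25 ± 0.05, or 2.39-fold.

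The size of the P2RX5 response differed between lines, a question separate from its mean (limma F test over the 7 differences, adjusted p = 1.37e-08, a test that called 27.4% of all genes). Set against the mean of the other 6 lines, the Kasumi-1 response stood at -1.38 (adjusted p = 2.92e-07), where 5.36% of all genes were called in that contrast. The MV-4-11 response was higher by 0.89 (adjusted p = 3.39e-05; 4.79% of all genes called) and that of Sig-M5 by 0.90 (adjusted p = 5.57e-05; 22.9% called). With vehicle, MV-4-11 and Sig-M5 were the lowest of the 7 lines on the main probe set. Vehicle P2RX5 averaged 7.74 ± 0.12 (SD, n = 3) in OCI-M1, 6.82 ± 0.11 (n = 2) in KG-1a, 6.71 ± 0.17 (n = 3) in NOMO-1, 6.47 ± 0.21 (n = 3) in OCI-AML3, 5.68 ± 0.19 (n = 2) in Kasumi-1, 4.87 ± 0.29 (n = 3) in MV-4-11 and 4.68 ± 0.19 (n = 2) in Sig-M5, an 8.38-fold range. Arrays of KG-1a, NOMO-1 and OCI-AML3 overlapped from one to the next in that order, and so did those of MV-4-11 and Sig-M5. OCI-M1 lay above the rest and Kasumi-1 between the groups. A second P2RX5 probe set also had higher values with tamibarotene in the same 6 lines, by 0.66 in OCI-M1 to 1.25 in OCI-AML3, and by 0.22 in Kasumi-1. On that probe set vehicle means were lowest in MV-4-11 (5.43), followed by Kasumi-1 (5.61) and Sig-M5 (5.80). Its Sig-M5 difference was 0.72 and that of MV-4-11 1.16. The Sig-M5 response was then at -0.13 against the mean of the others, and the MV-4-11 response higher by 0.38 (adjusted p = 0.152). The large Sig-M5 response is therefore a value of the main probe set. Without Sig-M5 vehicle replicate 2, the main probe set gave 1.89 there.

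**Figure D2:**
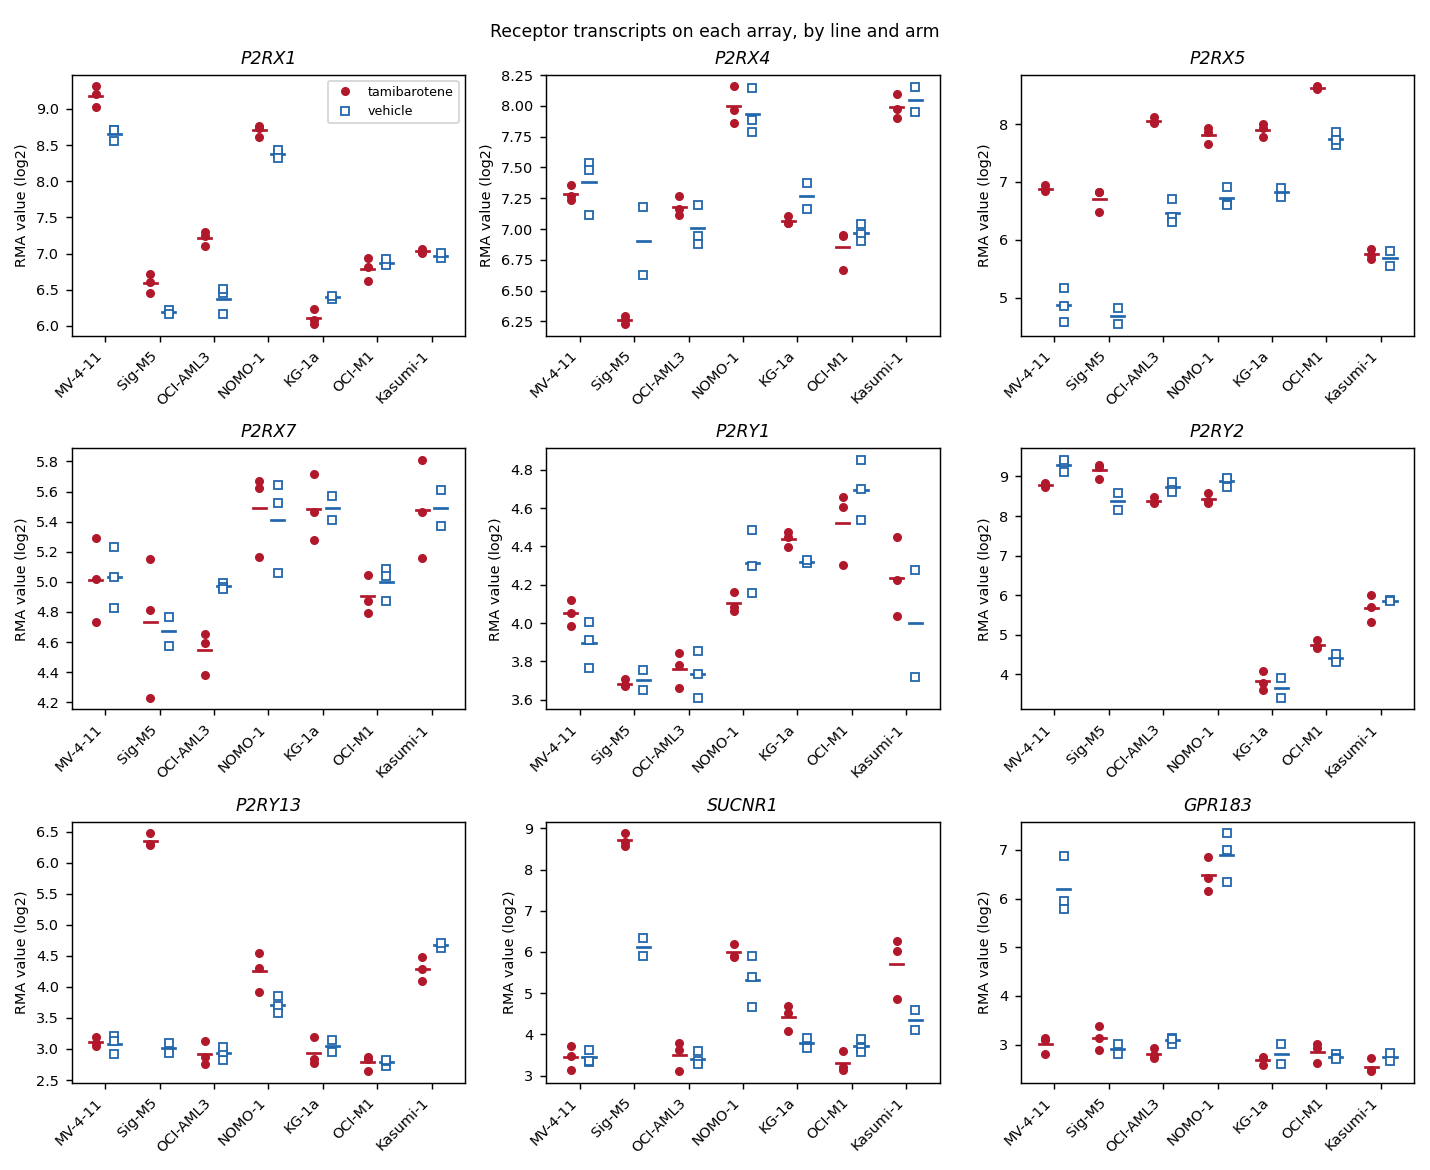
Log2 value of the main probe set of each of the 9 receptor genes on every array, by line (horizontal axis); red filled circles are tamibarotene arrays, blue open squares to their right are vehicle arrays, and horizontal bars are arm means, each panel having its own vertical scale. The arms are far apart for P2RX5 in 6 lines, for P2RY13 and SUCNR1 in Sig-M5 and for GPR183 in MV-4-11, while P2RX7 and P2RY1 overlap in most lines.

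Among the genes called in at least 2 lines with differences spanning at least 1, which numbered 1187, those whose 7 differences followed those of P2RX5 most closely were FIG4 (Pearson r = 0.99), NOTCH2 (0.96), TEX2 (0.96) and PIP4K2A (0.95). These values describe 7 points a gene that come from the same arrays. All 4 had their lowest difference in Kasumi-1, from -0.83 for NOTCH2 to -0.59 for TEX2, and all had larger differences in MV-4-11 and Sig-M5 than in NOMO-1, KG-1a and OCI-M1. NOTCH2, a receptor of the Notch family, was at 1.38 in both MV-4-11 and Sig-M5. Unlike P2RX5, FIG4 was near 0 in NOMO-1 (-0.06) and OCI-M1 (-0.06).

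P2RX1, an ATP-gated channel of platelets and myeloid cells that desensitises quickly, rose in 4 lines, as did 171 genes (0.943%) in at least 4. In OCI-AML3 it read 7.24, 7.29 and 7.11 with tamibarotene, against 6.46, 6.52 and 6.16 with vehicle, a difference of 0.84 ± 0.09 (adjusted p = 6.22e-08). MV-4-11 gave 9.02, 9.21 and 9.31 with tamibarotene, against 8.71, 8.55 and 8.70 with vehicle (0.53 ± 0.09, adjusted p = 0.000157). Neither line's arms overlapped. NOMO-1 arrays read 8.74, 8.76 and 8.61 with tamibarotene and 8.37, 8.43 and 8.32 with vehicle (0.33 ± 0.09, adjusted p = 0.0463). That call lay close to the threshold and held in 22 of 47 other settings. Sig-M5 arrays read 6.72, 6.45 and 6.61 with tamibarotene and 6.22 and 6.17 with vehicle (0.40 ± 0.11, adjusted p = 0.0042), beside the actin differences given above. Without Sig-M5 vehicle replicate 2 it was 0.38 (adjusted p = 0.0542), and with the actin covariate 0.33 (adjusted p = 0.194).

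KG-1a went the other way without passing the test, at 6.03, 6.23 and 6.08 with tamibarotene and 6.37 and 6.41 with vehicle (-0.28 ± 0.11, adjusted p = 0.196). The mean over the 7 lines was 0.26 ± 0.04 (adjusted p = 4.74e-06). Responses differed between lines (F test adjusted p = 2.83e-06). Against the other 6 lines, OCI-AML3 was higher by 0.68 (adjusted p = 2.48e-05; 7.83% of all genes called) and KG-1a stood at -0.63 (adjusted p = 0.000427; 4.90% called). The second P2RX1 probe set rose in OCI-AML3 (0.44, adjusted p = 0.0348 over all probe sets), whereas its differences in NOMO-1 (0.29), MV-4-11 (0.26) and Sig-M5 (-0.11) were not called. Its mean over the 7 lines was 0.05 (adjusted p = 0.581). Vehicle P2RX1 was highest in MV-4-11 (8.65 ± 0.09, n = 3) and NOMO-1 (8.37 ± 0.05, n = 3), followed by Kasumi-1 (6.97 ± 0.06, n = 2) and OCI-M1 (6.87 ± 0.05, n = 3). KG-1a (6.39 ± 0.03, n = 2), OCI-AML3 (6.38 ± 0.19, n = 3) and Sig-M5 (6.19 ± 0.03, n = 2) overlapped as neighbours at the low end of a 5.51-fold range.

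P2RX4, an ATP-gated channel found on endosomes, lysosomes and the cell surface, had arms that overlapped in OCI-AML3, NOMO-1, MV-4-11, OCI-M1 and Kasumi-1. It fell in Sig-M5 alone among the lines tested, with 6.23, 6.26 and 6.29 on tamibarotene arrays against 6.63 and 7.18 on vehicle arrays (-0.64 ± 0.14, adjusted p = 0.000714). The higher vehicle value was that of replicate 2, whose actin difference was 1.89. Without that array the difference was -0.36 (adjusted p = 0.126), with the actin covariate it was -0.34 (adjusted p = 0.307), and on the other probe set it was 0.01 (adjusted p = 0.983). Elsewhere the differences lay between -0.20 in KG-1a and 0.17 in OCI-AML3, and the mean over lines was -0.12 ± 0.05 (adjusted p = 0.0793), which passed the test without Sig-M5 vehicle replicate 1 (-0.16, adjusted p = 0.01) or MV-4-11 vehicle replicate 2 (-0.14, adjusted p = 0.0288). KG-1a arrays did not overlap, at 7.05, 7.05 and 7.10 with tamibarotene and 7.16 and 7.37 with vehicle. Vehicle levels spanned 2.22-fold, from 8.05 ± 0.15 (n = 2) in Kasumi-1 and 7.94 ± 0.18 (n = 3) in NOMO-1 to 6.90 ± 0.39 (n = 2) in Sig-M5. Of the 6 pairs of neighbours in that order, 5 overlapped, all but NOMO-1 and MV-4-11 (7.38 ± 0.23, n = 3).

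P2RX7, the ATP-gated channel that triggers the NLRP3 inflammasome when ATP is abundant, was called in no line. Its largest difference was in OCI-AML3, with 4.38, 4.66 and 4.60 on tamibarotene arrays against 4.99, 4.96 and 4.95 on vehicle arrays (-0.42 ± 0.19, adjusted p = 0.185). These arms did not overlap. In the other 6 lines the arms overlapped and the differences lay between -0.09 and 0.08. Tamibarotene means ran from 4.55 to 5.49 and vehicle means from 4.67 to 5.49 over the 7 lines. The mean difference was -0.06 ± 0.08 (adjusted p = 0.691). Of the 5 other probe sets of P2RX7, all were lower in OCI-AML3, with differences from -0.52 to -0.23, and 1 of them passed the test there (adjusted p = 0.0488 over all probe sets). None of the 5 was called in any other line. A fit of OCI-AML3 alone called the main probe set (adjusted p = 0.0208), as did the mean of all 6 (adjusted p = 0.0113).

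P2RY1, a receptor for ADP, was also called in no line with all arrays in the fit. Its differences ran from -0.21 in NOMO-1 to 0.24 in Kasumi-1, and averaged 0.02 ± 0.05 (adjusted p = 0.85). The Kasumi-1 value depended on single vehicle arrays: it was 0.52 (adjusted p = 0.0226) without vehicle replicate 3 and -0.04 (adjusted p = 0.963) without vehicle replicate 2, the array with an actin difference of 1.18. KG-1a was the 1 line whose arms did not overlap, with 4.40, 4.47 and 4.45 on tamibarotene arrays against 4.31 and 4.33 on vehicle arrays. Vehicle means ran from 4.69 ± 0.16 (n = 3) in OCI-M1, which lay above the others, to 3.70 ± 0.07 (n = 2) in Sig-M5. P2RY1 lay among the dimmest 40% of genes, as did P2RY13, SUCNR1 and GPR183 by their means over all arrays, so a small change in a line where such a gene is low could be missed.

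P2RY2, a receptor for ATP and UTP, moved in opposite directions in different lines, with calls both ways as for 3.07% of all genes. It rose in Sig-M5, with 9.29, 8.94 and 9.23 on tamibarotene arrays against 8.59 and 8.16 on vehicle arrays (0.78 ± 0.16, adjusted p = 0.000553). It fell in MV-4-11, with 8.74, 8.79 and 8.85 on tamibarotene arrays against 9.36, 9.13 and 9.42 on vehicle arrays (-0.51 ± 0.15, adjusted p = 0.0252). Neither line's arms overlapped. Lower values that did not pass the test were found in NOMO-1, at 8.58, 8.38 and 8.34 with tamibarotene and 8.95, 8.96 and 8.74 with vehicle (-0.45 ± 0.15, adjusted p = 0.0967), and in OCI-AML3, at 8.36, 8.48 and 8.34 with tamibarotene and 8.72, 8.86 and 8.61 with vehicle (-0.34 ± 0.15, adjusted p = 0.165). OCI-M1 read 4.88, 4.68 and 4.68 with tamibarotene and 4.37, 4.32 and 4.52 with vehicle (0.34 ± 0.15, adjusted p = 0.554). The responses differed between lines (F test adjusted p = 0.000149). Against the other 6 lines, Sig-M5 was higher by 0.94 (adjusted p = 0.000202) and MV-4-11 stood at -0.56 (adjusted p = 0.0358). The mean over lines was -0.03 ± 0.06. The Sig-M5 value stands beside the actin difference: it was 0.56 (adjusted p = 0.0572) without vehicle replicate 2 and 0.59 (adjusted p = 0.124) with the covariate. The MV-4-11 call was lost when any of 4 of its 6 arrays was left out, with adjusted p from 0.0719 to 0.125.

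Of the 9 genes, P2RY2 had the widest span of vehicle line means as measured, 5.63. The low level in KG-1a was not shown to be above background, so no fold range is given. Vehicle P2RY2 averaged 9.30 ± 0.15 (n = 3) in MV-4-11, 8.89 ± 0.12 (n = 3) in NOMO-1, 8.73 ± 0.13 (n = 3) in OCI-AML3 and 8.38 ± 0.30 (n = 2) in Sig-M5. A step down followed, to 5.86 ± 0.02 (n = 2) in Kasumi-1, 4.40 ± 0.11 (n = 3) in OCI-M1 and 3.67 ± 0.36 (n = 2) in KG-1a. NOMO-1 and OCI-AML3 were the only neighbours whose arrays overlapped. Both lines in which P2RY2 was called, in either direction, were among the 4 with high levels.

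P2RY13, a receptor for ADP, and SUCNR1, the succinate receptor, lie near each other on chromosome 3 and both rose several-fold in Sig-M5, so the sequence just before each start is shown. Both windows are the 250 bases upstream of the RefSeq gene start in GRCh38.p14, at chr3:151329550-151329799 (minus strand) for P2RY13 and chr3:151873393-151873642 (plus strand) for SUCNR1, written 5′ to 3′ along the gene. Capitals mark matches, on either strand, to the 6-base retinoid receptor motifs AGGTCA or AGTTCA or GGGTCA or GGTTCA.
P2RY13: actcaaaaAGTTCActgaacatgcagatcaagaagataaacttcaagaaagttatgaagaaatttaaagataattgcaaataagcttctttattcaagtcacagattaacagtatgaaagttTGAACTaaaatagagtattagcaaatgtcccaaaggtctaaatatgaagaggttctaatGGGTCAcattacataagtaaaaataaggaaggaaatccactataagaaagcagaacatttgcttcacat
SUCNR1: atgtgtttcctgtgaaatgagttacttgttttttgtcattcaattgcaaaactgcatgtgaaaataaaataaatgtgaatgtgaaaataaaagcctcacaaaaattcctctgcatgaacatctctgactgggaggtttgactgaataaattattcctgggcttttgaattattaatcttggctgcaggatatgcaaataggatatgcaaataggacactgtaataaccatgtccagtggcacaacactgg
The P2RY13 window held 3 such matches, AGTTCA at 242 to 237 bases before the start, AGTTCA on the opposite strand (written TGAACT along the gene) at 128 to 123 and GGGTCA at 69 to 64. The SUCNR1 window held none, and neither held a direct repeat of the motifs with 1, 2 or 5 bases between. Of 35116 RefSeq windows of this length, 33.8% held at least 1 of the 4 motifs, each motif occurring in 7.16% to 12.1%, and 0.202% held such a direct repeat. A match of this kind is a run of letters, not a measured binding site. Of the 10 receptor genes 6 had such a window: P2RX4 and P2RX7 held 1 match each, and P2RY1 and GPR183 none.

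P2RY13 read 6.28, 6.31 and 6.47 with tamibarotene in Sig-M5, against 2.93 and 3.09 with vehicle. The difference was 3.34 ± 0.15 (adjusted p = 4.01e-17) and put Sig-M5 above every other group. The vehicle level was not shown to be above background, so the difference may understate the change and no fold is given. It was 3.42 without vehicle replicate 2 and 3.44 with the actin covariate, so it was as large without the array of poorest RNA quality. A second probe set gave 1.89 (adjusted p = 1.57e-09 over all probe sets). In NOMO-1 the arrays read 3.92, 4.55 and 4.31 with tamibarotene and 3.69, 3.58 and 3.86 with vehicle (0.55 ± 0.13, adjusted p = 0.0107). This call was lost without tamibarotene replicate 2 (0.41, adjusted p = 0.151), and the second probe set gave -0.11. Kasumi-1 read 4.28, 4.10 and 4.48 with tamibarotene and 4.63 and 4.71 with vehicle (-0.38, adjusted p = 0.152), without overlap, as was so for 27.1% of all genes there. The other 4 lines had differences between -0.11 and 0.03. Responses differed between lines (F test adjusted p = 4.28e-14), and that of Sig-M5 exceeded the mean of the others by 3.33 (adjusted p = 1.25e-15). The mean over 7 lines, 0.49 ± 0.05 (adjusted p = 1.72e-08), was 0.09 (adjusted p = 0.453) without Kasumi-1 and Sig-M5. Vehicle P2RY13 was highest in Kasumi-1 (4.67 ± 0.05, n = 2) and NOMO-1 (3.71 ± 0.14, n = 3), the other lines lying between 3.09 and 2.79 with each overlapping the next.

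SUCNR1 rose in Sig-M5 and in Kasumi-1 (4.54% of all genes were called higher in at least 2 lines). Sig-M5 arrays read 8.87, 8.57 and 8.67 with tamibarotene, against 6.35 and 5.91 with vehicle (2.58 ± 0.30, adjusted p = 1.32e-07, 5.97-fold). The difference was 2.36 without vehicle replicate 2 and 2.06 with the actin covariate, and was called in both. In Kasumi-1 the arrays read 4.86, 6.26 and 6.03 with tamibarotene and 4.10 and 4.60 with vehicle (1.37 ± 0.30, adjusted p = 0.0158, 2.58-fold). The lowest treated array there lay just above the highest vehicle array, and the call was lost without tamibarotene replicate 2 (1.10, adjusted p = 0.141), without vehicle replicate 2 (1.12, adjusted p = 0.331) and with the actin covariate (1.10, adjusted p = 0.152). NOMO-1 read 5.91, 5.88 and 6.20 with tamibarotene and 5.40, 4.66 and 5.90 with vehicle (0.68, adjusted p = 0.222), with overlap. KG-1a read 4.70, 4.51 and 4.08 with tamibarotene and 3.68 and 3.91 with vehicle (0.63, adjusted p = 0.391), without overlap. In MV-4-11, OCI-AML3 and OCI-M1, where SUCNR1 was low in both arms, the differences were 0.00, 0.10 and -0.39.

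The SUCNR1 response differed between lines (F test adjusted p = 2.47e-05), and that of Sig-M5 exceeded the mean of the others by 2.18 (adjusted p = 1.08e-05). OCI-M1 stood at -1.29 against the others (adjusted p = 0.00856, where 3.50% of all genes were called). Its own difference of -0.39 was not called (adjusted p = 0.968) and its arms overlapped. The mean that OCI-M1 was set against included Sig-M5 (2.58) and Kasumi-1 (1.37). The mean over lines was 0.71 ± 0.11 (adjusted p = 9.01e-06), and 0.20 (adjusted p = 0.267) without Kasumi-1 and Sig-M5. Vehicle levels already set Sig-M5 (6.13 ± 0.31, n = 2) above NOMO-1 (5.32 ± 0.62, n = 3), Kasumi-1 (4.35 ± 0.36, n = 2) and KG-1a (3.80 ± 0.16, n = 2), with OCI-M1, MV-4-11 and OCI-AML3 overlapping down to 3.41 ± 0.17 (n = 3). SUCNR1 thus rose most in the line where it was highest with vehicle, whereas vehicle P2RY13 in Sig-M5 lay among 5 lines that overlapped. Line means of SUCNR1 spanned 5.39 with tamibarotene and 2.72 with vehicle, and those of P2RY13 3.57 with tamibarotene and 1.89 with vehicle.

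In gene order on chromosome 3, P2RY13 lies between P2RY14 and P2RY12 and SUCNR1 between AADAC and MBNL1, with P2RY1 next. Neighbouring genes are named for their position, after their values had been seen. On this stretch the measured genes GPR171, P2RY14, P2RY12, IGSF10, AADACL2, AADAC and MBNL1 were called in no line. Their differences in Sig-M5 lay between -0.22 for P2RY12, a platelet ADP receptor, and 0.72 for IGSF10. On chromosome 17, where P2RX5 and P2RX1 lie close together, the integrin gene ITGAE beside P2RX5 was called higher in 4 lines (mean 0.29). The kinase gene CAMKK1 beside P2RX1 was also called higher in 4 lines (mean 0.58), where 0.943% of all genes were called higher in at least 4. On the other sides, EMC6 beside P2RX5 was called lower in 1 line (mean -0.07). ATP2A3 beside P2RX1 was called higher in 1 line and lower in 1 (mean -0.14), with -1.10 in Sig-M5. HASPIN and NCBP3, which lie between ITGAE and CAMKK1, were called in none. On chromosome 12, P2RX4 and the kinase gene CAMKK2 beside it were both lower in Sig-M5, at -0.64 and -0.73. P2RX7, on the other side of P2RX4, was at 0.06 there. Across the 7 lines the differences of P2RY13 and SUCNR1 had a Pearson r of 0.77, a description of 7 points from shared arrays in which Sig-M5 is the highest for both.

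GPR183 was the receptor that was lowered most. In MV-4-11 it read 3.13, 3.09 and 2.80 with tamibarotene, against 5.94, 6.88 and 5.79 with vehicle, a difference of -3.20 ± 0.21. The treated arrays lay within the range of the lines where GPR183 was low in both arms, so this difference may understate the change and no fold is given. NOMO-1, the other line with a high vehicle level, read 6.42, 6.17 and 6.85 with tamibarotene and 6.99, 6.34 and 7.34 with vehicle (-0.41 ± 0.21, adjusted p = 0.403), with overlap. Vehicle GPR183 averaged 6.89 ± 0.51 (n = 3) in NOMO-1 and 6.20 ± 0.59 (n = 3) in MV-4-11, which overlapped. It lay between 3.08 and 2.74 in the other 5 lines, each overlapping the next in order. Those levels were not shown to be above background, so no fold range is given. In those 5 lines the differences lay between -0.28 in OCI-AML3 and 0.22 in Sig-M5. With such low levels there, a fall in those lines would be hard to see. The mean over 7 lines was -0.55 ± 0.09, carried by MV-4-11. A second probe set gave -2.17 in MV-4-11 and -0.32 to 0.09 elsewhere.

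The 250 bases before the GPR183 start in GRCh38.p14, at chr13:99307400-99307649 (minus strand), are shown for comparison with the P2RY13 window, because GPR183 was the gene with the largest fall. No capitals appear, since none of the 4 motifs was found in these letters, which says nothing of sites elsewhere.
GPR183: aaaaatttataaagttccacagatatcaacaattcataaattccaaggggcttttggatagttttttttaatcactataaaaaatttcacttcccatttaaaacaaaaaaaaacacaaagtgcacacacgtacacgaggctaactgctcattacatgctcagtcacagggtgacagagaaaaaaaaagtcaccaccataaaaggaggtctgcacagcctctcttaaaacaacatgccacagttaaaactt
The genes on either side of GPR183 on chromosome 13 were chosen for their position after values had been seen. GPR18, another receptor gene, was called lower in 2 lines, with -1.18 in Sig-M5 and -0.49 in MV-4-11. TM9SF2, on the other side, was called higher in 1 line, with 0.90 in Sig-M5 and -0.03 in MV-4-11. The genes whose 7 differences followed those of GPR183 most closely were KCNE5, a potassium channel subunit (r = 0.95), RNASE2, a granule ribonuclease (0.95), TLE1, a transcriptional corepressor (0.92), and CLEC12A, an inhibitory lectin of myeloid cells (0.92). Each had its lowest difference in MV-4-11, from -2.37 for CLEC12A to -1.07 for KCNE5, and its highest in Sig-M5, from 0.26 for TLE1 to 1.24 for CLEC12A.

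Probe sets of the same receptor gene mostly had smaller differences than the main one where the main one moved far. The direction was kept for P2RX5 in all 7 lines, for GPR183 in MV-4-11 and for P2RY13 in Sig-M5. It was not kept for P2RX1 and P2RX4 in Sig-M5 or for P2RY13 in NOMO-1. P2RY2 and SUCNR1 have 1 probe set each and cannot be checked in this way.

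**Figure D3:**
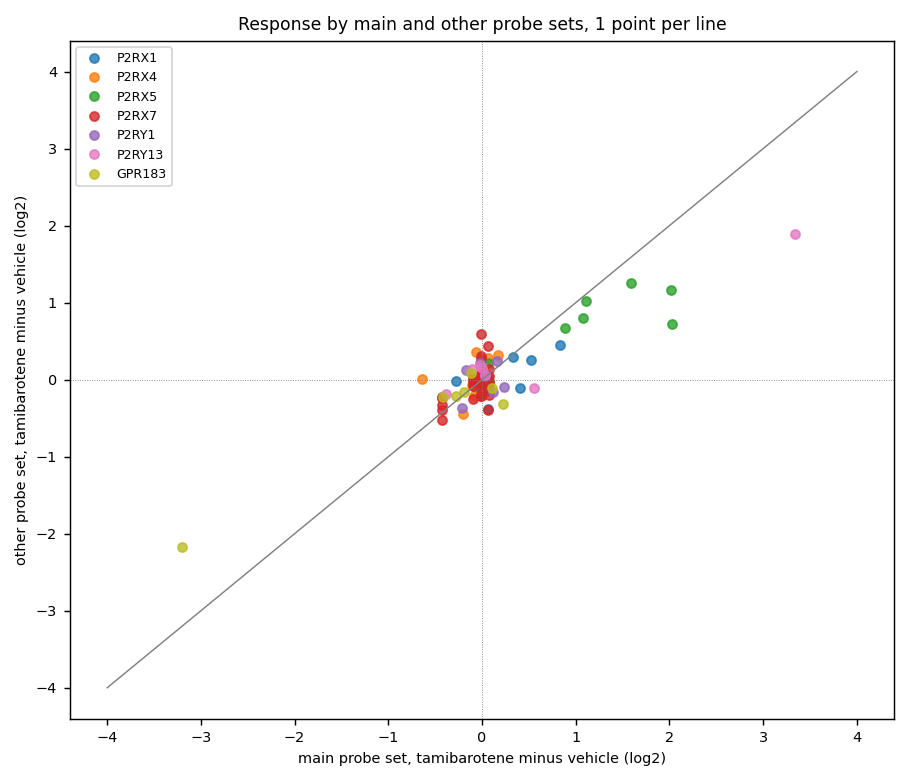
Tamibarotene minus vehicle (log2) by the main probe set (horizontal axis) and by each other probe set of the same gene (vertical axis), 1 point per other probe set and line; the diagonal marks equal differences. Points far from 0 lie in the same direction by both, with P2RX5 in 6 lines, P2RY13 in Sig-M5 (3.34 and 1.89) and GPR183 in MV-4-11 (-3.20 and -2.17) below the main value in size, while P2RX4 in Sig-M5 (-0.64 and 0.01) lies on the horizontal axis.

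Other genes of the same pathways were taken from lists of receptors, ligand-handling enzymes and effectors, of which 50 were measured. On the mean of the 7 lines, 7 were called higher and 7 lower, beside the 6.71% and 12.4% of all genes given above. By line, the counts called higher and lower were 7 and 9 in Sig-M5, 8 and 9 in OCI-AML3, 7 and 3 in MV-4-11, 2 and 3 in KG-1a, 2 and 1 in NOMO-1, 3 and 0 in OCI-M1 and 0 and 1 in Kasumi-1. The shares of all genes called higher and lower were 8.50% and 18.4% in Sig-M5, 5.50% and 6.36% in OCI-AML3 and 4.32% and 3.40% in MV-4-11, with those of the other lines given above. The Sig-M5 total of 16 was 10 without vehicle replicate 2. None of the 3 other P2X subunits was called on the mean. Another 5 measured genes were listed by a P2RY symbol, which alone does not make a gene a nucleotide receptor. Of these, P2RY8 was called lower on the mean (-0.14). That value hides opposite calls: 0.59 in OCI-AML3 and 0.46 in OCI-M1, but -0.85 in KG-1a and -0.88 in Sig-M5. P2RY6, the UDP receptor next to P2RY2 on chromosome 11, was higher by 1.47 in OCI-M1 and lower in OCI-AML3 (-0.52). Of 3 other adenosine receptors, ADORA3 was called lower on the mean (-0.18). ADORA2B, the low-affinity adenosine receptor, was higher in Sig-M5 (0.88) and lower in OCI-AML3 (-0.51).

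Among 11 other metabolite receptors, 3 were called higher on the mean and none lower, beside 6.71% and 12.4% of all genes. GPR35, a receptor for which kynurenic acid is a proposed ligand, averaged 0.48 and was called higher in MV-4-11, OCI-AML3 and Sig-M5. GPR132, a receptor reported to sense lactate and oxidised lipids, also averaged 0.48 and was called in the same 3 lines. FFAR2, the short-chain fatty acid receptor, averaged 0.27, with 1.35 in NOMO-1. GPR84, a receptor for medium-chain fatty acids, was higher in MV-4-11 (1.11), KG-1a (1.18) and OCI-M1 (0.88) but lower in OCI-AML3 (-1.23) and Sig-M5 (-1.39). Of 4 genes for nucleotide release, SLC17A9, the vesicular nucleotide transporter, was called lower on the mean (-0.18).

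Of 16 genes for turnover of nucleotides and adenosine, 1 was called higher and 3 lower on the mean, counts near the 6.71% and 12.4% of all genes. ADA, the intracellular adenosine deaminase, averaged 0.24 and was called higher in 4 lines and lower in KG-1a (-0.41). ADA2, the secreted deaminase, averaged -0.39 and was called lower in MV-4-11 (-1.25), KG-1a (-0.93) and Sig-M5 (-0.86). ADK, adenosine kinase, averaged -0.12, and PNP, purine nucleoside phosphorylase, averaged -0.16 with calls in both directions. SLC29A1, an equilibrative nucleoside transporter, was called lower in OCI-AML3 (-0.47) and Sig-M5 (-0.63). Neither of the 2 measured enzymes for oxysterol ligands of GPR183 was called on the mean. Of 6 genes downstream of P2RX7, 3 were called higher and 1 lower on the mean. NLRP3, the inflammasome sensor, averaged 0.50 and was called higher in MV-4-11 (0.67), KG-1a (0.44), OCI-AML3 (0.76) and Sig-M5 (1.18). PYCARD, its adaptor, averaged 0.20, and IL18, a cytokine released by the inflammasome, averaged 0.28 with 1.22 in MV-4-11 and 0.80 in OCI-AML3. CASP1, the inflammasome protease, was called lower on the mean (-0.21).

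**Figure D4:**
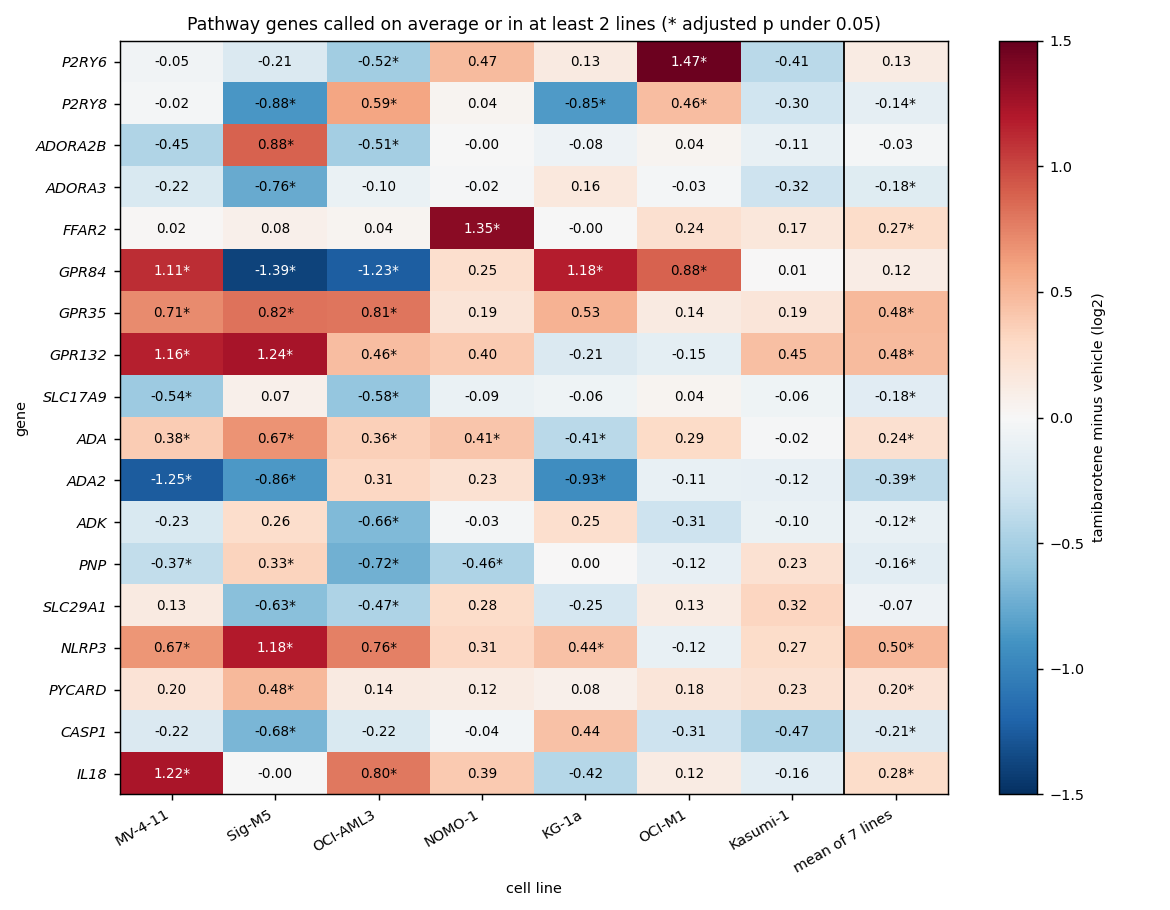
Tamibarotene minus vehicle (log2) for the 18 pathway genes called on the mean or in at least 2 lines (rows), by line and on the mean of the 7 lines (columns), with an asterisk where the adjusted p was under 0.05. NLRP3, GPR35 and GPR132 are red across MV-4-11, Sig-M5 and OCI-AML3, whereas P2RY8 and GPR84 change sign between lines.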

How the data were processed

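Gene expression was measured on 39 arrays of 7 cell lines. Per the submitters' processing notes, the authors made the deposited log2 values by RMA (background correction, quantile normalization and summary per probe set) with the affy package, whose version is not given in the sources used here. The file gives no detection calls, so precision rests on how many arrays a group has. Of 49395 probe sets, 44988 name 1 gene symbol in the platform annotation and 1832 name several, which were not used; this left 18132 genes, each represented by its probe set of highest mean. No symbol changed when gene IDs were looked up in RefSeq.

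All genes were fitted together in limma 3.58.1 (R 4.3.3), with 1 mean per group over 14 groups; files were read with the R package data.table, version 1.17.8, and figures drawn with matplotlib 3.10.9 in Python 3.11.15. Each line's difference is tamibarotene minus vehicle; the other contrasts were the unweighted mean of the 7 differences, an F test with 6 degrees of freedom of equal differences, and each line against the mean of the other 6. The Benjamini-Hochberg method adjusted p-values over the 18132 genes (over all single-symbol probe sets where other probe sets are given), with a threshold of 0.05. The error of the mean leaves out the spread between lines. The fit was tested on simulated data with known changes. Vehicle levels were not tested: neighbouring lines were compared by whether their arrays overlapped.

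The receptors, the pathway lists and the tests were chosen with earlier results of these data known. All receptor genes were named. A pathway gene was named where called on the mean or in at least 2 lines, and for P2RX5 and GPR183 the 4 genes most correlated over the 7 lines were named. Neighbouring genes were named for their position. The labels do not say whether replicate numbers pair samples. In OCI-M1 all 3 same-numbered pairs deviated together (correlations of 0.12 to 0.37). Such correlations ran from 0.10 to 0.67 in MV-4-11, 0.01 to 0.57 in NOMO-1 and -0.04 to 0.46 in OCI-AML3. In Kasumi-1, KG-1a and Sig-M5 they lay between -0.17 and 0.12. RefSeq windows of 250 bases before gene starts in GRCh38.p14 were searched for the motifs. The highest correlation of 2 arrays of a group was 0.997.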

Additional observations from a re-analysis of the deposited data

Results flagged for a closer look

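For 6 receptor genes other than GPR183, which is left out here because it was chosen by its difference in 1 line, the response to tamibarotene differed between the 7 lines by limma's F test of equal differences, adjusted over all genes, a test that called 27.4% of all genes. The adjusted p was 4.28e-14 for P2RY13, whose differences ran from -0.38 in Kasumi-1 to 3.34 in Sig-M5, and 1.37e-08 for P2RX5, from 0.07 in Kasumi-1 to 2.03 in Sig-M5. It was 2.83e-06 for P2RX1, whose lowest difference was -0.28 (KG-1a) and highest 0.84 (OCI-AML3), and 2.47e-05 for SUCNR1, with -0.39 as the lowest (OCI-M1) and 2.58 as the highest (Sig-M5). P2RY2 had 0.000149, with -0.51 in MV-4-11 and 0.78 in Sig-M5. P2RX4 had 0.0307, which rested on Sig-M5: without Sig-M5 vehicle replicate 2 it was 0.284. Without Kasumi-1 and Sig-M5, the lines with the vehicle arrays of lowest RNA quality, the value was 0.0969 for P2RY13, 0.102 for SUCNR1 and 0.486 for P2RX4. No array of a group could be set apart as an outlier, since groups held 2 or 3 arrays.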

How the results depend on the processing

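Counts of receptors called, P2RX5 and GPR183 included, stayed within 1.5 times the main count in 405 of the recomputations and moved in 18. The main counts of 1 in KG-1a and OCI-M1 were P2RX5 alone, and those in MV-4-11 and on the mean held both chosen genes. Counts that held steady are therefore not independent evidence for the list. Shares of all genes called under the other settings are not given. The KG-1a count of 1 was 2 with the replicate number as a block and 3 with array weights. The Kasumi-1 count of 1 was 0 with array weights, with the actin covariate, without the dimmest 40% of genes and with the line fitted alone. NOMO-1 had 1 rather than 3 when fitted alone, OCI-AML3 5 rather than 2 with array weights, and Sig-M5 3 rather than 6 with the actin covariate. The count on the mean of lines, 5, was 2 without the dimmest 40% of genes, a filter that removes P2RY1, P2RY13, SUCNR1 and GPR183, and 3 without Kasumi-1 and Sig-M5. The count of responses differing between lines, 7 with GPR183, was 4 in each of these settings. Leaving out 1 array at a time gave 0 to 2 in Kasumi-1, 3 to 4 in MV-4-11, 1 to 3 in NOMO-1, 1 to 1 in KG-1a, 2 to 2 in OCI-AML3, 1 to 1 in OCI-M1, 3 to 6 in Sig-M5, 5 to 6 on the mean and 6 to 8 for the F test. The low counts came without vehicle replicate 2 in Sig-M5, without tamibarotene replicate 2 in NOMO-1 and without tamibarotene replicate 2 or vehicle replicate 2 in Kasumi-1, where leaving out vehicle replicate 3 gave 2. Of the 50 pathway genes, leaving out 1 array gave 3 to 6 called in KG-1a (main count 5), 0 to 5 in Kasumi-1 (1) and 10 to 18 in Sig-M5 (16), array weights gave 10 in KG-1a and 27 in OCI-AML3 (17), and the actin covariate 9 in Sig-M5. By the other probe set, 4 of the called values changed sign: P2RX1 in Sig-M5 (-0.11), P2RX4 in Sig-M5 (0.0084), P2RY13 in NOMO-1 (-0.11) and P2RX5 in Sig-M5 against the other lines (-0.13). In OCI-M1, where all 3 same-numbered pairs deviated together, the block left the count at 1 and P2RX5 at 0.89. In the other lines correlations of same-numbered pairs ran from -0.17 to 0.67. The block also called SUCNR1 in KG-1a (0.81) and NOMO-1 and P2RX7 in OCI-AML3 (adjusted p = 0.0247). Whether replicate numbers mark pairs is not stated in the labels, so results with and without the block are both given. Where other causes of these moves are not given by the setting itself, the cause was not tested. P2RY13 in Sig-M5 (2.61 to 3.44) and SUCNR1 in Sig-M5 (2.06 to 2.80) were called in all 46 settings that measured them.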
